A study of Rattus norvegicus with 30 samples.

Results

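Gene expression was compared between the injured (ipsilateral) and the opposite (contralateral) hemisphere of 12-month-old male rats, 14 days after the middle cerebral artery had been blocked for 75 min and reopened. The RNA came from microglia, the resident macrophages of the brain, and was read on whole-transcript arrays. The comparison rests on 6 of the 30 arrays of the series, namely the ipsilateral and the contralateral array of each of 3 animals, chosen by sample title and paired by replicate number. The whole series holds 10 groups of 3 arrays: sham, and both hemispheres at day 3 and at day 14 after stroke, at 3 and at 12 months of age. The stroke was made with a filament under 1.2% isoflurane, and both hemispheres of an animal share it, so the contralateral arrays also come from rats with a stroke. Rats without one are represented by 3 sham arrays of 12-month rats. The labels give the strain in conflicting ways: Wistar Kyoto among the sample characteristics and spontaneously hypertensive rats in the protocols. How the microglia were isolated and which hemisphere the sham samples came from are not given in the sources used here.

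Microglia survey the brain parenchyma with receptors for nucleotides, chemokines and lipids, and change their transcriptome when myelin, dead cells or plasma proteins reach them. After a stroke they clear lipid-rich debris, which brings cholesterol into the cell. Cells loaded with sterol switch off sterol synthesis through the SREBP2 pathway and switch on export through liver X receptors. The genes described here were taken from across the array, with the known microglial state markers given only in brief. Some members of the gene lists are named beyond the naming rule, to fill out a count, and were chosen after their values were seen.

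Each value is a log2 signal made by the authors with RMA, and a difference is the ipsilateral minus the contralateral group mean (n = 3 arrays each) ± its standard error. A gene is called at an adjusted p under 0.05, from limma with Benjamini-Hochberg adjustment over 11675 genes, with the animal as a block. The labelled cell type was checked on its markers. P2ry12, a purinergic receptor that defines microglia, lay at 11.04 to 11.96 on the 6 arrays, where the array medians were 5.08 to 5.14. Markers of astrocytes and neurons had list means of 4.54 to 5.18 on these arrays. Other lists lay above the array medians: oligodendrocytes at 5.49 to 5.73, oligodendrocyte precursors at 5.53 to 5.67 and endothelial cells at 6.10 to 6.24. Markers of infiltrating monocytes and macrophages had list means of 6.02 to 6.64, and those of border-associated macrophages 5.95 to 6.97. In RNA from a mixed cell suspension, fewer cells of a type and less RNA per cell cannot be told apart.

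Of the 11675 genes, 2131 (18.3%) were called between the hemispheres, 1366 higher (11.7%) and 765 lower (6.55%) on the injured side. The large differences were mostly rises: 150 called genes were at least 1 log2 unit higher and 50 at least 1 lower, and at 3 log2 units or more there were 10 rises and 0 falls. The median difference was 0.46 among genes called higher, -0.44 among genes called lower and -0.01 over all genes. The 3 ipsilateral arrays lay wholly above the contralateral arrays for 2065 genes and wholly below for 1598, together 31.4% of genes, and 2025 of the called genes were among these. Calls were more frequent among bright genes, from 5.45% of the dimmest 2919 genes to 33.1% of the brightest 2919. Without animal 1, 1301 genes were called, 732 higher and 569 lower. The plot of difference against level shows the calls over the whole range of signal.

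**Figure D1:**
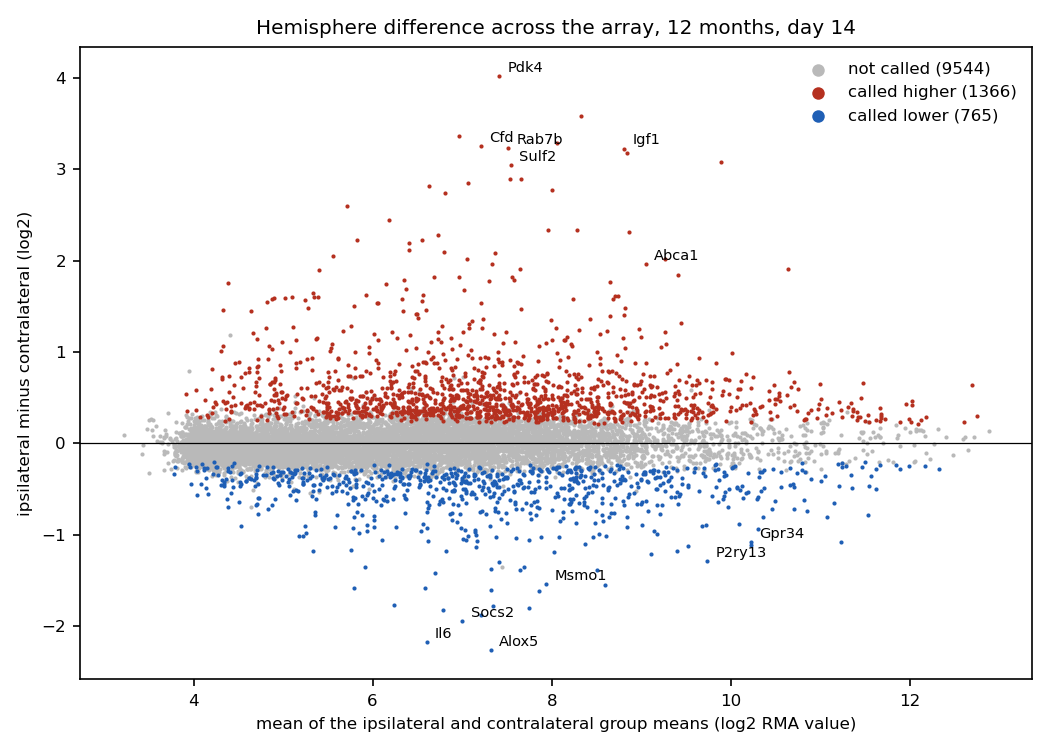
Each point is 1 of 11675 genes, placed by the mean of the ipsilateral and contralateral group means (x axis, log2 RMA value) and the ipsilateral minus contralateral difference (y axis, log2), with red for called higher, blue for called lower and grey for not called. The rises reach 4.02 (Pdk4) and the falls -2.26 (Alox5).

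Outside the marker lists, the largest rises were those of Cfd, Rab7b and Sulf2. Cfd, the serine protease factor D that starts the alternative complement pathway, read 5.87, 5.45 and 5.43 on the contralateral arrays of animals 1, 2 and 3. On the ipsilateral arrays it read 9.16, 8.69 and 8.66. Every ipsilateral array was more than 2 log2 units above every contralateral one, and the rise was 3.25 ± 0.23 (9.53-fold, adjusted p = 9.2e-12). Rab7b, a small GTPase of late endosomes and the route to the trans-Golgi network, went from 5.73, 6.11 and 5.84 to 8.96, 9.18 and 9.24, a rise of 3.23 ± 0.16 (adjusted p = 3.1e-15). Sulf2, an extracellular enzyme that removes sulfate from heparan sulfate, went from 5.92, 6.30 and 5.84 to 9.06, 8.96 and 9.17. Its rise was 3.05 ± 0.20 (8.27-fold). The naming rule admitted here only genes whose hemispheres did not overlap.

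Several enzymes were among the 25 leading rises. Ak4, a mitochondrial adenylate kinase, was near the floor of the array on the contralateral side, at 4.65, 4.22 and 4.37, and read 6.91, 7.20 and 6.92 on the ipsilateral side. Its rise was 2.60 ± 0.17 (adjusted p = 2.1e-12). Hsdl2, a peroxisomal dehydrogenase-like protein, rose from 7.22, 7.09 and 7.03 to 9.57, 9.29 and 9.48, and its standard error of 0.10 was below the array-wide median of 0.11. Galc, the lysosomal enzyme that breaks down the myelin lipid galactosylceramide, rose by 2.34 ± 0.15 (6.69, 6.91 and 6.79 against 9.26, 9.12 and 9.01). Acaca, the acetyl-CoA carboxylase that commits carbon to fatty acid synthesis, rose by 1.83 ± 0.11 (5.86, 6.22 and 6.08 against 7.85, 7.90 and 7.89). Mgst1, a membrane-bound glutathione transferase, rose by 2.08 ± 0.29. In these 5 genes the lowest ipsilateral array stood above the highest contralateral array, as the naming rule required.

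Of the surface proteins among these rises, Pdpn, the mucin-like glycoprotein podoplanin, read 5.96, 6.39 and 5.93 on the contralateral arrays and 8.98, 9.24 and 8.73 on the ipsilateral arrays, a rise of 2.89 ± 0.20. Cd14, the lipopolysaccharide co-receptor, rose by 2.78 ± 0.20, and its 3 animals differed in size: 3.41 in animal 1, 2.41 in animal 2 and 2.51 in animal 3. Cd34, a sialomucin best known from blood stem cells and vessels, rose from 7.58, 8.0 and 7.51 to 10.18, 9.98 and 9.88. Nrp1, a co-receptor for semaphorins and VEGF, rose by 2.09 ± 0.14, and Slamf9, a receptor of the SLAM family, by 1.90 ± 0.27. Fcrl2, an Fc receptor-like protein, rose by 1.84 ± 0.13. Stom and Clic4, a lipid-raft protein and an intracellular chloride channel protein, rose by 2.23 ± 0.18 and 2.28 ± 0.22.

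The rest of the leading rises had varied roles. Ifitm1, an interferon-induced membrane protein, rose by 2.86 ± 0.40 with animal differences of 2.85, 3.06 and 2.66. Slfn4, a Schlafen family member of myeloid cells, rose by 2.74 ± 0.25. Il1rn, the secreted antagonist of the interleukin-1 receptor, read 5.05, 4.84 and 4.98 contralaterally and 7.51, 7.40 and 7.30 ipsilaterally, a rise of 2.44 ± 0.28. Cxcl13, the chemokine that draws B cells, rose by 2.23 ± 0.26. The protease Plau (urokinase) rose by 2.02 ± 0.16, as did the metalloprotease inhibitor Timp1, at 2.02 ± 0.15. In both, animal 1 was highest, with 2.43 against 1.66 and 1.97 for Plau, and 2.64 against 1.62 and 1.80 for Timp1. Hopx, a homeodomain protein that does not bind DNA itself, rose by 2.81 ± 0.30, the cytoskeletal Septin9 by 1.91 ± 0.12, and Glipr1, a cysteine-rich secretory family protein, by 1.97 ± 0.18.

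The largest fall on the array was in Alox5, 5-lipoxygenase, which starts leukotriene synthesis. It read 8.38, 8.55 and 8.42 on the contralateral arrays and 6.33, 5.78 and 6.45 on the ipsilateral arrays, a difference of -2.26 ± 0.15 (4.80-fold lower, adjusted p = 1.1e-12). Sham arrays averaged 8.59. A receptor for the products of this pathway, the cysteinyl leukotriene receptor Cysltr1, fell as well, with a difference of -1.42 ± 0.17 (7.22, 7.48 and 7.52 against 5.50, 6.15 and 6.30). Ltc4s, which makes leukotriene C4, had a difference of -0.66 ± 0.11, and Alox5ap, the activating protein of 5-lipoxygenase, one of -0.30. All 4 of these genes were called lower, although Alox5ap lost its call without animal 2 (-0.25, adjusted p = 0.15) or animal 3 (-0.27, adjusted p = 0.14). It was also not called by limma after median centring (adjusted p = 0.053) or on the 6 arrays alone (adjusted p = 0.063 with the pairing and 0.059 without it).

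Il6 and Socs2 had the next largest falls. Il6, a cytokine of acute inflammation, went from 8.21, 7.60 and 7.26 to 5.63, 5.41 and 5.52, a difference of -2.17 ± 0.19 (4.50-fold lower). Socs2, a feedback inhibitor of cytokine receptors, went from 7.97, 7.93 and 8.03 to 6.07, 5.77 and 6.25, a difference of -1.95 ± 0.17. For both genes the highest ipsilateral array was more than 1 log2 unit below the lowest contralateral array. Il7r, the interleukin-7 receptor chain, had a difference of -1.55 ± 0.17 and Cd7, a lymphocyte surface protein, one of -1.80 ± 0.24. Cfp, the complement stabiliser properdin, had a difference of -1.19 ± 0.16, opposite in sign to that of Cfd, whose product acts in the same pathway. Pdgfc, a platelet-derived growth factor chain, differed by -1.17 ± 0.12.

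The Il6 promoter is shown because Il6 was the most reduced cytokine; it holds 1 kappa-B match (GGGA, then any pair of bases, then TTCC, on either strand), set in capitals, with its first base at position -68 from the transcription start. The sequence is from RefSeq, build GRCr8, chr4:5894526-5894825, minus strand, written 5′ to 3′ along the gene from 250 bases before to 50 bases after its start.
Il6: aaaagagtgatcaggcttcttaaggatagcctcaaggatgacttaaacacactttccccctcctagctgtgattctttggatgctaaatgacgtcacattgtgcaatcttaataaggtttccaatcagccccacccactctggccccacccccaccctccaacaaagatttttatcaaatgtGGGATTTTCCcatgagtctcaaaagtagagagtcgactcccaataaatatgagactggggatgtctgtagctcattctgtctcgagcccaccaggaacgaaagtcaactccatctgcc
The same letters occurred in 16 of 626 promoters of genes called lower (2.56%), in 21 of 1157 of genes called higher (1.82%) and in 145 of the 9672 promoters of tested genes (1.5%). Within this window the match is a description of the sequence and not evidence of binding.

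The other leading falls had varied roles. Dpp6, an auxiliary subunit of A-type potassium channels, went from 8.10, 8.13 and 8.22 to 6.09, 6.19 and 6.53, a difference of -1.88 ± 0.14. Astn1, astrotactin 1, which was described in neurons as an adhesion protein of migrating cells, differed by -1.82 ± 0.10 (7.75, 7.63 and 7.69 against 5.82, 5.70 and 6.09). Efnb2, the membrane-bound ligand ephrin-B2, differed by -1.58 ± 0.17, and here animal 1 was smallest, with -1.12 against -1.75 and -1.87. Chad, the matrix protein chondroadherin, differed by -1.60 ± 0.15 with animal values between -1.65 and -1.56. Cav1, the caveolar coat protein, differed by -1.76 ± 0.22, and the tetraspanins Tspan7 and Tspan8, organisers of membrane domains, by -1.30 ± 0.14 and -1.18 ± 0.11. The rest were falls of the endocytic adaptor Ston2 (-1.38), the transporter Slc43a3 (-1.35), the sulfotransferase Gal3st4 (-1.21), the sodium-activated potassium channel Kcnt2 (-1.17), Maged1 (-1.17), the Cdc42 effector Cdc42ep3 (-1.14) and Fam72a (-1.58).

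The 25 rises ran from 1.83 to 3.25 and the 25 falls from -1.14 to -2.26, and all 50 kept their calls under every alternative processing that was run. These genes were chosen for no overlap between hemispheres and for 1 direction in the 3 animals, so the separation visible in the plot of animal differences is part of that choice.

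**Figure D2:**
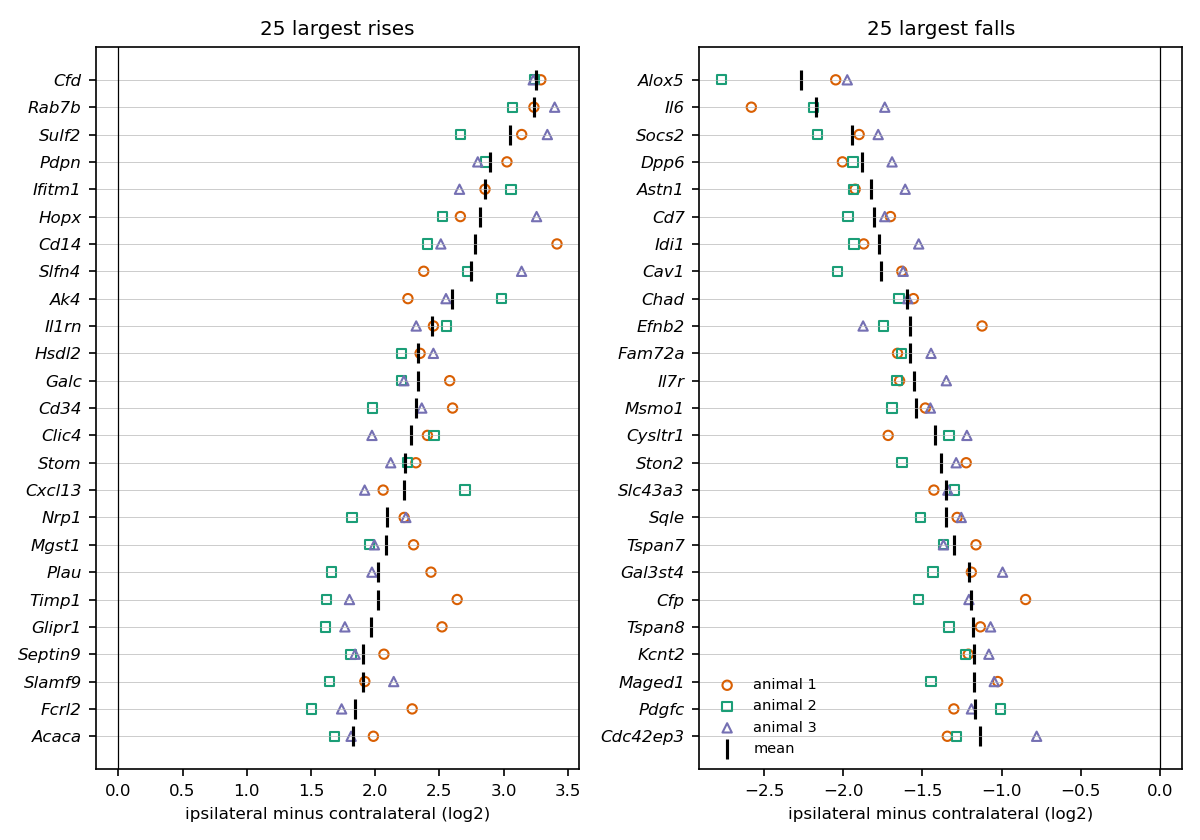
Ipsilateral minus contralateral difference (x axis, log2) in animal 1 (circle), animal 2 (square) and animal 3 (triangle), with the mean as a bar, for the 25 largest rises (left) and the 25 largest falls (right) outside the marker lists. The smallest animal difference among the rises is 1.5 (Fcrl2, animal 2) and among the falls -0.78 (Cdc42ep3, animal 3).

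Against sham, all 50 genes were called in the ipsilateral hemisphere, which as a whole had 2343 called genes (20.1%). The contralateral hemisphere had 1 called gene against sham (0.00857%), with 814 genes at an unadjusted p under 0.05. That gene was Gpnmb, a glycoprotein of lipid-loaded phagocytes, which averaged 6.87 in sham, 8.35 contralaterally and 11.43 ipsilaterally, so that the contralateral level was 1.47 ± 0.22 above sham (adjusted p = 0.0020). Without contralateral replicate 2, without sham replicate 2 or with a variance trend in the test, 0 genes were called in this comparison. Among the 50 genes the contralateral level lay within -0.29 to 0.65 of sham for the rises and within -0.46 to 0.63 for the falls. The largest of these gaps were in Rab7b (5.24 in sham, 5.89 contralaterally) and Idi1 (7.60 and 8.23), neither of them called. These comparisons share the stroke arrays with the hemisphere comparison.

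**Figure D3:**
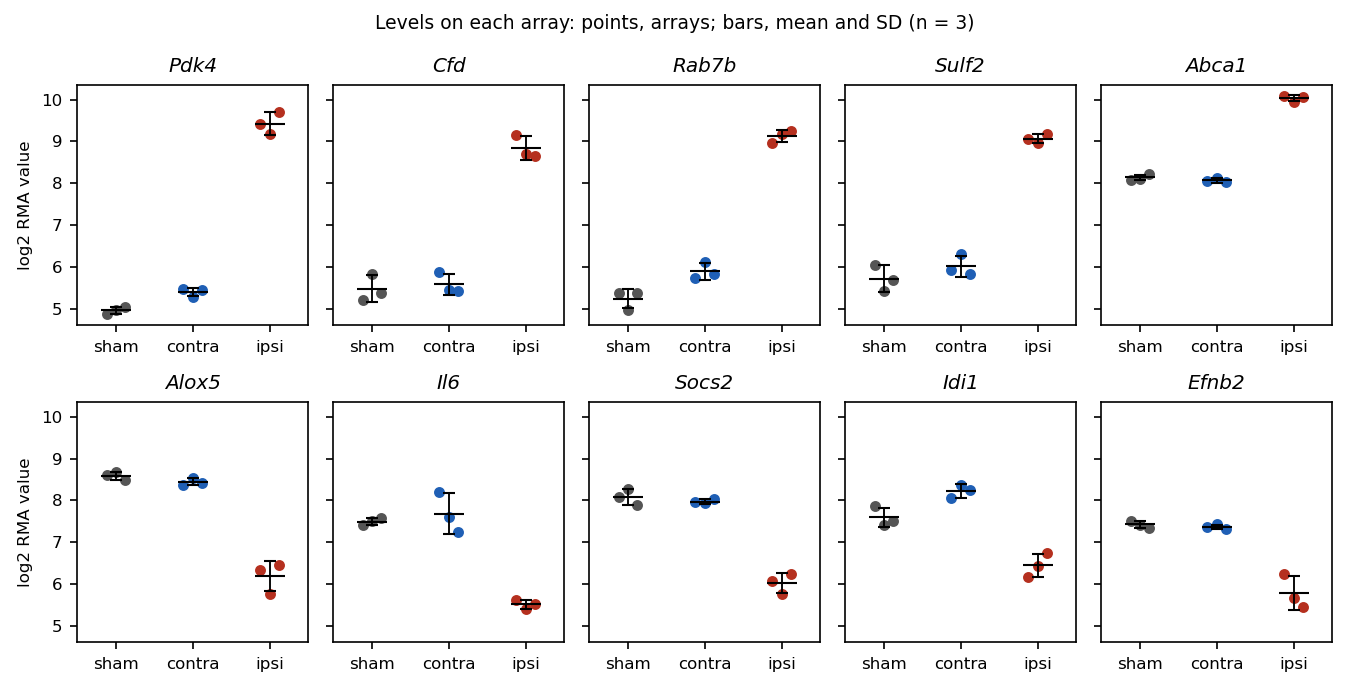
Log2 RMA value (y axis) on each of 3 sham, 3 contralateral and 3 ipsilateral arrays of 12-month rats for 10 genes, with the mean and SD (n = 3) as bars. The 3 ipsilateral points stand apart from the other 6 in every panel. The contralateral points lie near the sham points, farthest from them for Rab7b and Idi1. Apart from Pdk4 and Abca1, the genes were chosen for no overlap between the hemispheres.

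Sterol synthesis genes were lower on the injured side. Of 20 tested members of the list, 11 were called lower (55%) and 0 higher, beside 6.55% of all genes called lower. The list had a median difference of -0.38 beside -0.01 over all genes. Idi1, isopentenyl diphosphate isomerase of the mevalonate pathway, read 8.05, 8.37 and 8.26 contralaterally and 6.18, 6.44 and 6.74 ipsilaterally, a difference of -1.78 ± 0.20. Msmo1, the methylsterol monooxygenase, went from 8.59, 8.66 and 8.87 to 7.10, 6.96 and 7.42 (-1.54 ± 0.18). Sqle, squalene epoxidase, differed by -1.35 ± 0.17 and Cyp51, the lanosterol demethylase, by -1.02 ± 0.14. In each of these 4 genes no array of one hemisphere reached the range of the other. For Idi1, Msmo1 and Sqle, which are among the leading falls, the naming rule required this. The others called lower were Fdps, Fdft1, Sc5d and Acat2, all enzymes, with Stard4, a sterol carrier, and the regulators Insig1 and Srebf2, between -0.93 and -0.33. Of these, Fdft1 lost its call without animal 2 (-0.32) or animal 3 (-0.42), Stard4 without animal 3 (-0.33), and Acat2 without animal 2 (-0.30) or animal 3 (-0.20).

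Several sterol export and lipoprotein genes moved the other way. The list of liver X and retinoid X receptor targets also includes receptors themselves. Of its 16 tested members, 8 were called higher (50%, beside 11.7% of all genes), 0 lower and 8 not called, with 10 above 0 (median 0.36). Abca1, the transporter that loads cholesterol onto lipoproteins, went from 8.04, 8.13 and 8.03 to 10.08, 9.95 and 10.05, a rise of 1.96 ± 0.08 (adjusted p = 4.5e-17). Apoc1, a small apolipoprotein, rose by 3.37 ± 0.36, and Smpdl3a, a secreted phosphodiesterase, by 1.42 ± 0.27. Lpl, lipoprotein lipase, was at or below the 30th percentile of the array on all 3 contralateral arrays (3.59, 3.50 and 3.43) and read 6.64, 4.64 and 4.52 ipsilaterally, so its rise was at least 1.10 (fitted 1.76 ± 0.28) and was largest in animal 1. Without that animal the fitted rise was 1.11, still called. Rxra, a receptor of the pair, rose by 1.13 ± 0.12, and Abcg1, the partner exporter, by 0.86 ± 0.09.

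Genes of fuel use were called at several steps. Of 22 genes of fatty acid oxidation and its switches, 7 were called higher and 0 lower (median 0.15), 31.8% beside 18.3% of all genes. Pdk4, the kinase that closes pyruvate dehydrogenase when fat is burnt, had the largest rise on the array: 5.47, 5.28 and 5.45 became 9.41, 9.17 and 9.71, a difference of 4.02 ± 0.18 (16.3-fold, adjusted p = 1.8e-16). Plin2, the lipid droplet coat, rose by 1.23 ± 0.14, Angptl4 by 1.03 ± 0.12 and Cpt1a, which brings fatty acids into mitochondria, by 0.88 ± 0.13. The remaining 3 were the oxidation enzymes Acaa2, Acadl and Hadh, at 0.52 to 0.67, and Hadh lost its call without animal 1 (0.36). Of 28 subunits of oxidative phosphorylation, 23 were called higher (82.1%) and 0 lower, and 14 were called without animal 1. All rose by little (median 0.38, highest 0.61 in Uqcrh, a complex III subunit). Their list means of 9.16 to 9.66 lay in the range of the brightest 2919 genes, of which 33.1% were called. Glycolysis was mixed, with 6 of 19 called higher and 4 lower (52.6% in all). Its largest change was in Pfkfb3, which makes the activator of phosphofructokinase, at 1.75 ± 0.22 (5.12, 5.34 and 5.36 against 7.49, 6.84 and 6.75), and its largest fall was in the lactate carrier Slc16a3, at -0.71 ± 0.18, which lost its call without animal 3 (-0.63, adjusted p = 0.059). Without animal 1, 3 glycolysis genes were called higher and 2 lower, and without animal 2 or 3 there were 1 or 2 lower.

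The lysosome list had 15 of 31 called higher and 4 lower (61.3% in all, median 0.22). Its list means of 9.58 to 9.92 lay in the range of the brightest 2919 genes, of which 33.1% were called. Gaa, acid alpha-glucosidase, rose by 1.09 ± 0.08 (8.61, 8.80 and 8.79 against 9.77, 9.86 and 9.85), Ctsk, a cathepsin, by 0.69 ± 0.16 and Hexa, a hexosaminidase subunit, by 0.68 ± 0.10. The 4 lower members were Gla, Lamp2, Ctss and Ctsl, at -0.43 to -0.22. Ctsk lost its call without animal 1 (0.53), Ctsl without animal 2 (-0.18) or 3 (-0.17), and Ctss when any of the 3 animals was left out (-0.25 to -0.23). Without animal 1, 9 members were called higher, and without animal 2 or animal 3, 2 were called lower. The autophagy list had 3 of 26 called in each direction, together 23.1% beside 18.3% of all genes. The largest of them was the phagophore protein Map1lc3b (0.41 ± 0.11), which stood at 0.38 and was not called without animal 3. When any of the 3 animals was left out, or after median centring, 0 autophagy genes were called lower by limma.

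Inflammatory mediators did not move as 1 group: of 24 tested, 6 were called higher and 9 lower (62.5% called, median -0.15). Il1b, interleukin-1 beta, rose by 1.77 ± 0.24 (7.66, 7.89 and 7.76 against 9.70, 9.40 and 9.52), together with its antagonist Il1rn and with Csf1, the growth factor of macrophages (1.61). Il1a, the other interleukin-1, had a difference of -0.88, Tnf one of -1.11, Ptgs1, the constitutive cyclooxygenase, one of -1.12, and Hbegf one of -0.92. Osm and Lif, cytokines that signal through the same gp130 chain as Il6, rose by 0.62 and 0.60, and Lif lost its call without animal 3 (0.52). Of 14 genes of NF-kB and its feedback, 7 were called higher (50%) and 0 lower, led by Birc3 at 0.82 ± 0.18 and Nfkb2 at 0.59 ± 0.11. Without ipsilateral replicate 1 there were 3 higher. Immediate early genes were called about as often as all genes (18.2% and 18.3%). Of 22, 3 were higher (Nr4a2 by 1.20 ± 0.13, Fosl2 by 0.76 ± 0.12 and Nr4a1 by 0.74 ± 0.15) and 1 lower (Ier5, -0.32 ± 0.08). Without animal 3, Ier5 stood at -0.27 and was not called. After quantile normalization of the arrays, 3 members were called higher and 6 lower. Their list means of 9.03 to 9.19 lay in the range of the brightest 2919 genes, of which 33.1% were called. The apoptosis list had 8 of 28 called higher and 2 lower (35.7% in all). The higher ones included the survival genes Bcl2a1 (0.99), Xiap (0.81) and Bcl2 (0.46) and the death-promoting Bcl2l11 (0.92). The lower ones were the death-promoting Pmaip1 (-0.47) and Bbc3 (-0.27). Of these, Bcl2 and Pmaip1 lost their calls without animal 1 (0.36 and -0.37) or animal 2 (0.46 and -0.34), and Bbc3 without animal 1 (-0.27) or animal 3 (-0.23). With its probe sets averaged, Xiap had a difference of 0.48, still called.

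Signalling lists of development were little or unevenly affected. Wnt signalling had 1 of 34 called, Ctnnb1 (beta-catenin) at 0.66 ± 0.11, a share of 2.94% beside 18.3% of all genes. Notch signalling had 4 of 21 called higher and 3 lower (33.3% in all). Its effector Rbpj rose by 1.22 ± 0.11 (6.84, 6.96 and 6.84 against 8.28, 7.96 and 8.06), while Numb, an inhibitor of Notch, had a difference of -0.95 ± 0.11. The receptors parted, with Notch2 at 0.66 ± 0.10 and Notch4 at -0.67 ± 0.13. Without animal 1 or without animal 3, this list had 2 higher calls. TGF-beta and BMP signalling had 5 of 29 called higher and 2 lower (24.1%, beside 18.3% of all genes). Its list means of 6.59 to 6.77 lay in a range where 21.9% of genes were called. The rises were led by the stress-induced Gdf15 at 1.27 ± 0.15 and the procollagen protease Bmp1 at 0.92 ± 0.12. The falls included the inhibitor Smad7 at -0.64 ± 0.13. Without animal 1 or animal 2, 3 were called higher. The clock list had 3 of 15 higher and 1 lower (26.7% in all), with Bhlhe40 at 0.57 ± 0.13 and Bmal1, an activator of the clock, at -0.36 ± 0.11. Bmal1 lost its call without animal 2 (-0.20) or animal 3 (-0.37), Per3 (0.33) without animal 1 (0.30) or animal 3 (0.27), and Dbp (0.37) without animal 1 (0.23).

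**Figure D4:**
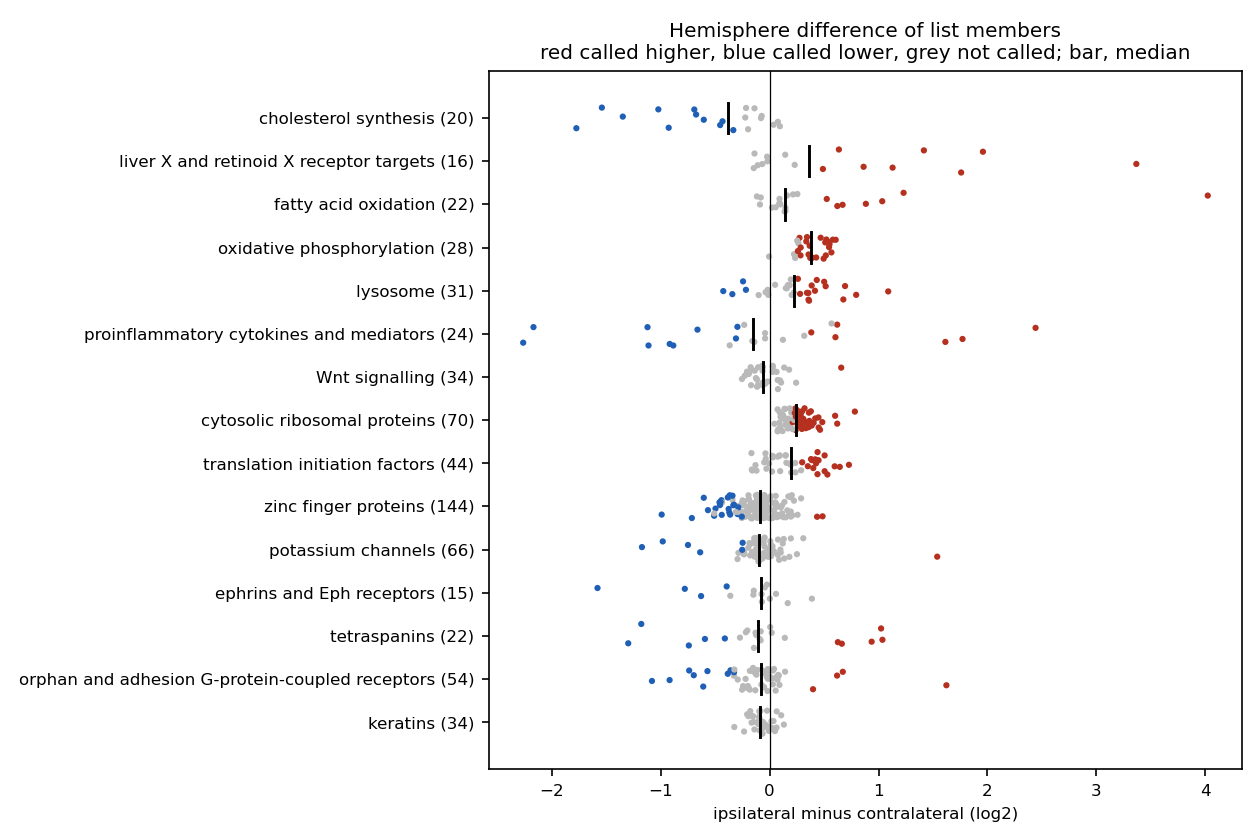
Ipsilateral minus contralateral difference (x axis, log2) of each tested member of 15 gene lists (rows, number of members in brackets), red for called higher, blue for called lower, grey for not called, with the list median as a bar. Sterol synthesis members spread to the left down to -1.78. The list of liver X receptor targets, which includes receptors, spreads to the right up to 3.37. Ribosomal proteins sit in a narrow band from 0.05 to 0.78.

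Among gene families, the machinery of translation was shifted up by small amounts. All 70 cytosolic ribosomal proteins had a difference above 0 (0.05 to 0.78, median 0.25) and 41 of them were called higher. Rpsa, a small-subunit protein, went from 10.07, 10.35 and 10.34 to 11.07, 10.98 and 11.07 (0.78 ± 0.13), and Rplp0, a stalk protein, rose by 0.60 ± 0.08. Ribosomal protein probe sets can also bind transcripts of near-identical pseudogenes, so single members are uncertain. The share called was 58.6% for cytosolic ribosomal proteins, beside 18.3% of all genes and 33.1% of the brightest 2919, in whose range their means of 11.22 to 11.51 lay. Translation initiation factors, with means of 7.74 to 8.06 also in that range, had 17 of 44 called higher (38.6%) and 0 lower. Mitochondrial ribosomal proteins, with means of 6.94 to 7.18 where 21.9% of genes were called, had 19 of 68 higher (27.9%) and 0 lower. These counts depended on the animals: without animal 1, 16 cytosolic and 7 mitochondrial ribosomal proteins were called, and without animal 3, 21 and 9. After quantile normalization of the arrays, 66 of the 70 cytosolic proteins were above 0 and 29 were called higher, and the mitochondrial ones had 11 called higher and 1 lower. Zinc finger proteins were called no more often than all genes (16.7%), but with 22 of 144 lower and 2 higher (median -0.09), led by Zfp658 at -0.99 ± 0.13, and without animal 1 or 2 there were 10 or 11 lower.

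Families of the cell surface gave calls in both directions. The shares called were 26.7% for ephrins and their receptors, 27.8% for semaphorins, plexins and neuropilins, and 45.5% for tetraspanins. For potassium channels the share was 10.6% and for orphan and adhesion receptors 24.1%. Of all genes, 18.3% were called, 11.7% higher and 6.55% lower. Ephrins and their receptors had 4 of 15 called lower and 0 higher: Efnb2, then Epha2 (-0.78 ± 0.13), Ephb3 (-0.63 ± 0.13) and Efnb1 (-0.39 ± 0.10; not called without animal 1, at -0.39, or animal 3, at -0.27). The neuropilins Nrp1 and Nrp2 (1.5 ± 0.12) rose, as did the semaphorin receptor Plxnd1 (1.60 ± 0.17), while Sema4a, a semaphorin, had a difference of -1.02 ± 0.10, and 5 of 18 members of that family were called in all, 3 higher and 2 lower (1 lower without animal 2 or 3). Tetraspanins had 5 of 22 higher and 5 lower, with Tspan5 (1.04 ± 0.12) and Tspan4 (1.02 ± 0.10) at one end and Tspan7 and Tspan8 at the other. Potassium channels had 1 of 66 higher, the calcium-activated Kcnn4 (1.54 ± 0.15; 5.36, 5.15 and 5.36 against 6.98, 6.83 and 6.68). There were 6 potassium channels called lower, led by Kcnt2, the inward rectifier Kcnj15 (-0.98 ± 0.21) and Kcnj5 (-0.75 ± 0.12), and 3 without animal 2. Orphan and adhesion G-protein-coupled receptors had 9 of 54 lower and 4 higher. The proton-sensing receptor Gpr65 led upwards, at 1.62 ± 0.13 (5.65, 5.90 and 5.70 against 7.70, 7.29 and 7.13), and the adhesion receptor Adgrg1 was among the falls at -0.92 ± 0.13. Without animal 1 there were 2 higher calls in that family.

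Receptors and adaptors of immune signalling were among the further families. The shares called were 36.7% for interleukin and interferon receptors, 33.3% for SOCS, STAT and JAK genes and 30.4% for C-type lectins. For integrins, annexins with S100 proteins, and regulators of G-protein signalling they were 28.6%, 23.8% and 12.5%, beside 18.3% of all genes. Of 30 interleukin and interferon receptor genes, 6 were called higher and 5 lower, with 3 lower without animal 2 or without animal 3. Il13ra1, a receptor chain for interleukins 4 and 13, rose by 0.92 ± 0.10, and the shared gamma chain Il2rg rose by at least 0.69 (fitted 1.07 ± 0.16), because its contralateral arrays lay at or below the 30th percentile. Il6st, the gp130 chain through which Il6 signals, had a difference of -0.71 ± 0.10 (10.98, 11.07 and 11.13 against 10.15, 10.34 and 10.54). Of 15 SOCS, STAT and JAK genes, 4 were called higher, with Stat3 at 0.58 ± 0.10, and 1 lower, Socs2; without animal 1 there was 1 higher and without animal 3 there were 2. C-type lectins had 6 of 23 higher, led by Clec7a and Clec4a2 (1.54 ± 0.27; 3.69, 4.10 and 4.33 against 5.89, 5.22 and 5.66), and 1 lower. Integrins had 5 of 21 higher, with Itgal and Itgb2, the chains of LFA-1, at 0.97 ± 0.11 and 0.54 ± 0.09, and 1 lower, and without animal 1 there were 3 higher. Annexins and S100 proteins had 4 of 21 higher, all annexins, with Anxa6 at 1.37 ± 0.15 after Anxa2. Both regulators of G-protein signalling that were called, of 16 tested, were lower, Rgs11 at -0.92 ± 0.13 and Rgs16 at -0.74 ± 0.13. Dusp10, a phosphatase of stress kinases, rose by 1.11 ± 0.12, and the cation channel Trpc6 had a difference of -0.81 ± 0.11 (9.17, 9.25 and 9.30 against 8.48, 8.20 and 8.62).

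Calls in large families of transport and in families of tissue specification differed widely in frequency. Solute carriers had 28 of 259 higher and 21 lower (18.9%), near the 18.3% of all genes, with the arginine carrier Slc7a2 at 1.00 ± 0.11 and Slc38a6 at 0.93 ± 0.10, and without animal 1 there were 15 higher. Rab GTPases had 10 of 56 higher, with Rab7b far above Rab13 (1.58 ± 0.14) and Rab32 (0.94 ± 0.10), and 6 lower (28.6% in all); without animal 2 or 3 there were 3 lower. Kinesins and myosins had 10 of 37 higher and 1 lower (29.7%), led by Myo1e at 1.54 ± 0.12 (6.4, 6.50 and 6.43 against 7.85, 7.80 and 8.29), and 5 higher without animal 1. Fox factors (27), Hox factors (12) and keratins (34) had 0 calls by limma, with 1, 0 and 2 genes at an unadjusted p under 0.05, and all of their differences lay between -0.32 and 0.20. Of 353 probe sets with olfactory receptor symbols, 2 were called higher and 5 lower (1.98%), with 2 lower without animal 1 or 3 and 9 without animal 2. The larger rise there was of Olr1, which that prefix took in although it is the scavenger receptor for oxidised LDL, at 1.25 ± 0.14. Hox, keratin and olfactory receptor lists had means between 4.38 and 4.76, below 4.87, where 5.45% of genes were called. The Fox list, at 5.67 to 5.79, lay in the band of 4.87 to 6.05, where 12.5% were called.

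The known state markers are given for orientation. The shares called were 60.7% for homeostatic, 62.2% for disease-associated and 57.1% for interferon-response genes. For MHC class II and class I they were 10% and 31.2%, beside 18.3% of all genes. Of 28 homeostatic microglial genes, 16 were called lower and 1 higher (Itgam). Tmem119, a surface protein of microglia, had a difference of -1.38 ± 0.17, P2ry13 one of -1.28 ± 0.13 and Gpr34 one of -1.08 ± 0.12. Of 37 disease-associated genes, 21 were called higher and 2 lower (0 lower without animal 2 or 3), with Axl, a receptor for apoptotic cells, at 3.58 ± 0.18, Clec7a, a glucan receptor, at 3.28 ± 0.21 and Igf1 at 3.23 ± 0.12 (7.22, 7.18 and 7.19 against 10.48, 10.48 and 10.32). Of 35 interferon-response genes, 19 were called higher and 1 lower (Samd9l, -0.41; not called without animal 1 or 2), and 12 higher without animal 3. Mx1, an antiviral GTPase, led with 2.19 ± 0.20. Genes of antigen presentation had small differences. MHC class II had 0 of 10 called higher and 1 lower (RT1-DMa, -0.48; -0.33 and not called without animal 2), with 3 genes at an unadjusted p under 0.05. The class I list had 5 of 16 higher, at 0.31 to 0.43 (the immunoproteasome and its activator, Psmb8, Psmb9, Psme1 and Psme2, with RT1-S3), and without animal 1 or animal 3 there were 1 and 2 higher calls.

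Promoters are shown for a pair of interferon-response genes that were called higher, because many promoters of this list hold 1 motif. The core of the interferon-stimulated response element (GAAA, then any pair of bases, then GAAA, on either strand) is in capitals. Both sequences are from RefSeq, build GRCr8, minus strand, 5′ to 3′ along the gene: Irf7, a transcription factor of the interferon response, at chr1:205799974-205800273, and Lgals3bp, a secreted galectin-binding protein, at chr10:104127799-104128098.
Irf7: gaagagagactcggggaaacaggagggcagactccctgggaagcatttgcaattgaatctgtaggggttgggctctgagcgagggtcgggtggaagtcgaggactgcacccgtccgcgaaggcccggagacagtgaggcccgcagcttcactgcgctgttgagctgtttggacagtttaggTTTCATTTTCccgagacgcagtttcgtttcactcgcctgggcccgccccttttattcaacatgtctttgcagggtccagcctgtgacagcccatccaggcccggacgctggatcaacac
Lgals3bp: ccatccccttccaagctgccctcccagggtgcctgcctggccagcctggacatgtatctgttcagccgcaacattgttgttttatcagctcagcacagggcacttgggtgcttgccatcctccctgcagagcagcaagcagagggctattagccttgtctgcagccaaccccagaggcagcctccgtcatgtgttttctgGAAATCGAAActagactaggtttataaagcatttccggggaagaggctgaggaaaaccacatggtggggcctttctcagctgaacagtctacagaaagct
The match starts at position -69 in Irf7, on the opposite strand, and at position -50 in Lgals3bp. Of 26 interferon-response genes with a promoter in the RefSeq table, 16 held the core (61.5%), beside 304 of the 9672 tested genes with one (3.14%). Among the 13 of these that were called the share was the same, 8 genes. The core was in 46 of 1157 promoters of all genes called higher (3.98%) and in 19 of 626 of genes called lower (3.04%). The sterol regulatory element and the AP-1 site were also searched for, on either strand. The sterol element (TCAC, then any base, then CCAC) was in 0 of 16 promoters of tested sterol synthesis genes, beside 117 of 9672 (1.21%). The AP-1 site was in 42 of 1157 promoters of genes called higher (3.63%) and in 32 of 626 called lower (5.11%), beside 348 of 9672 (3.6%).

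Markers of other cells were mixed. Of 18 genes of infiltrating monocytes and macrophages, 6 were called higher and 1 lower (Plac8, -1.10 ± 0.17), 38.9% beside 18.3% of all genes. The rises were of Anxa2 (2.12 ± 0.21), F10 (1.35), Vim (1.24), Gda (0.84), Cd44 (0.82) and Itga4 (0.48), and the last 3 lost their calls without animal 1 (0.63, 0.59 and 0.39). Gda also lost its call without animal 3 (0.87, adjusted p = 0.053) and Itga4 without animal 2 (0.49, adjusted p = 0.076). Their list mean was 6.02 to 6.13 contralaterally and 6.64, 6.19 and 6.19 ipsilaterally, highest in animal 1. Of 11 genes of border-associated macrophages, 5 were higher and 2 lower (63.6% in all), with 1 lower without animal 2 or 3. Siglec1 stood at 2.05, Folr2 at 1.15 and Lyve1, the hyaluronan receptor of these cells, at -1.38 ± 0.26. Folr2 stood at 0.75 without ipsilateral replicate 1 and Lyve1 at -0.89 without ipsilateral replicate 2, both still called, whereas Mrc1 (0.92, adjusted p = 0.049) lost its call when any of the 3 animals was left out (0.59 to 1.09), without a replicate block and in several other fits, and stood at 0.32 without ipsilateral replicate 1. The list mean was again highest on the ipsilateral array of animal 1 (6.97, against 6.13 and 6.38). The shares called were below that of all genes for neutrophil (15%), T and NK cell (15.4%) and B cell (16.7%) lists. Neutrophil genes had 2 of 20 higher (Trem1, 1.23, and Il1r2, 0.80) and 1 lower, S100a9, at -1.61 ± 0.51, with list means of 5.17 to 5.53 contralaterally and 5.06 to 5.25 ipsilaterally. S100a9 lost its call when any of the 3 animals was left out (-1.64 to -1.57) and with a variance trend in the test (adjusted p = 0.070), and Il1r2 without animal 3 (0.70). T and NK cell genes had 2 of 13 called, Cd8a (0.89) and Cd8b (at least 0.44, fitted 0.82; 0.47 and not called without animal 1), and B cell genes 1 of 6, Cd22 (1.60). Endothelial genes had 1 of 11 higher and 3 lower (36.4% in all), with Pecam1 at -0.59. Oligodendrocyte genes had 1 of 9 called (11.1%), Cnp, at -0.84 ± 0.11. Astrocytes (10 genes), neurons (11), oligodendrocyte precursors (5) and pericytes (11) had 0 calls by limma, with 0, 1, 0 and 1 genes at an unadjusted p under 0.05. The part of other cells in the differences above was not tested.

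The 3 animals differed in size more than in direction. Of the called genes, 2098 had the same sign in the 3 animals and 33 had 1 animal against the other 2. Animal 1 had the largest rise for 846 of the 1366 genes called higher (animal medians 0.59, 0.38 and 0.46), and animal 2 the largest fall for 444 of the 765 called lower (medians -0.42, -0.55 and -0.41). On the contralateral side the array of animal 1 had the narrowest spread of values (SD 1.94, against 1.99 and 1.98), and its part in these sizes was not tested. The called genes with the widest spread over animals were Spp1 (osteopontin; 4.0, 2.15 and 2.53), Htr2b, a serotonin receptor, Lpl, Mmp12, the macrophage elastase, and Atp6v1a, a proton pump subunit. Mmp12 read 4.11, 4.13 and 4.16 contralaterally and 6.36, 4.42 and 5.07 ipsilaterally, and without animal 1 its difference was 0.59 and not called (adjusted p = 0.35). Vsig4, a complement receptor of tissue macrophages, had the widest spread of genes that missed the call: its ipsilateral arrays read 7.13, 3.98 and 3.91 (adjusted p = 0.052). Cell cycle list means were also highest on the ipsilateral array of animal 1, at 5.74 against 5.34 and 5.30 on the others. The cell cycle list had 4 of 25 called higher and 1 lower, 20% beside 18.3% of all genes. Without animal 1 there were 2 higher, and without animal 3 there were 6.

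Among the 33 genes with 1 animal against the rest, the 3 with the largest mean difference had animal 2 as the exception. Htr2b read 4.88, 5.53 and 5.09 contralaterally and 6.88, 5.35 and 5.28 ipsilaterally, Atp6v1a 5.81, 6.60 and 5.91 against 7.33, 6.31 and 7.05, and Rap2b, a small GTPase, 5.48, 5.99 and 5.99 against 6.79, 5.86 and 7.04. In each of them the hemispheres overlapped. Without animal 1 none was called, at 0.01 for Htr2b, 0.43 for Atp6v1a and 0.46 for Rap2b, and without animal 2 the last pair stood at 1.33 and 1.18. That pair also lost its calls without animal 3 (0.62 and 0.59), and Htr2b without a replicate block (adjusted p = 0.052).

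The hemisphere difference at 12 months was set against that at 3 months, also at day 14, to ask whether age changed it. The test of the difference called 1 gene of 11675 (0.00857%), and 1176 genes had an unadjusted p under 0.05. That gene was Serping1, the C1 inhibitor of complement and kinin pathways. In 12-month rats it read 4.18, 4.39 and 4.36 contralaterally and 5.61, 5.49 and 5.03 ipsilaterally. In 3-month rats it read 4.0, 4.36 and 4.32 contralaterally and 8.20, 6.87 and 8.15 ipsilaterally. The rise was therefore 1.07 ± 0.20 at 12 months and 3.51 ± 0.20 at 3 months, a difference of -2.44 ± 0.29 (adjusted p = 2.5e-05). Of the 50 leading genes outside the marker lists, the lowest adjusted p of the age test was 0.056 (Astn1). The spread of values over an array was 1.85 to 1.93 (SD) at 3 months and 1.94 to 2.01 at 12 months on day 14, and leaving out single arrays gave 1 to 10 called genes.

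The hemisphere difference at day 14 was also set against that at day 3 of 12-month rats, which were other animals. This test called 694 genes (5.94%), 226 with a higher and 468 with a lower difference at day 14, and 411 without animal 3 and 424 without animal 2. Of the 25 leading rises, 10 were larger at day 14, 2 were smaller and 13 were not called. The leading rises and falls were chosen for large differences at day 14, so their counts are tilted towards larger differences there. Rab7b had a difference of 0.83 at day 3 and 3.23 at day 14, Axl 1.28 and 3.58, and Cxcl13 0.40 and 2.23. Lag3, an inhibitory receptor, went from -0.56 to 1.22, and the actin-binding Coro6 from -0.06 to 1.58. The smaller rises were those of Timp1 (3.21 and 2.02) and Septin9 (2.56 and 1.91).

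Among the 25 leading falls, 9 were larger at day 14 and 0 smaller, again in genes chosen for their day 14 differences. Sqle had a difference of -0.04 at day 3 and -1.35 at day 14, and Tspan7 -0.10 and -1.30. Alox5 had differences of -1.13 and -2.26, whereas Il6 stood at -2.01 and -2.17, with no call between the days. The most negative day differences belonged to genes of other classes. S100a11, a calcium-binding protein, went from 3.80 at day 3 to 0.73 at day 14, where it was not called (7.54, 6.11 and 6.29 against 8.86, 6.34 and 6.91). Gda, guanine deaminase, went from 3.48 to 0.84 (0.63 and not called at day 14 without animal 1), Ccnb1, cyclin B1 of mitosis, from 2.76 to 0.19, S100a9 from 1.26 to -1.61 and S100a8 from 1.22 to -1.35 (adjusted p = 0.061 at day 14). Of 25 cell cycle genes, 21 were called in this test.

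**Figure D5:**
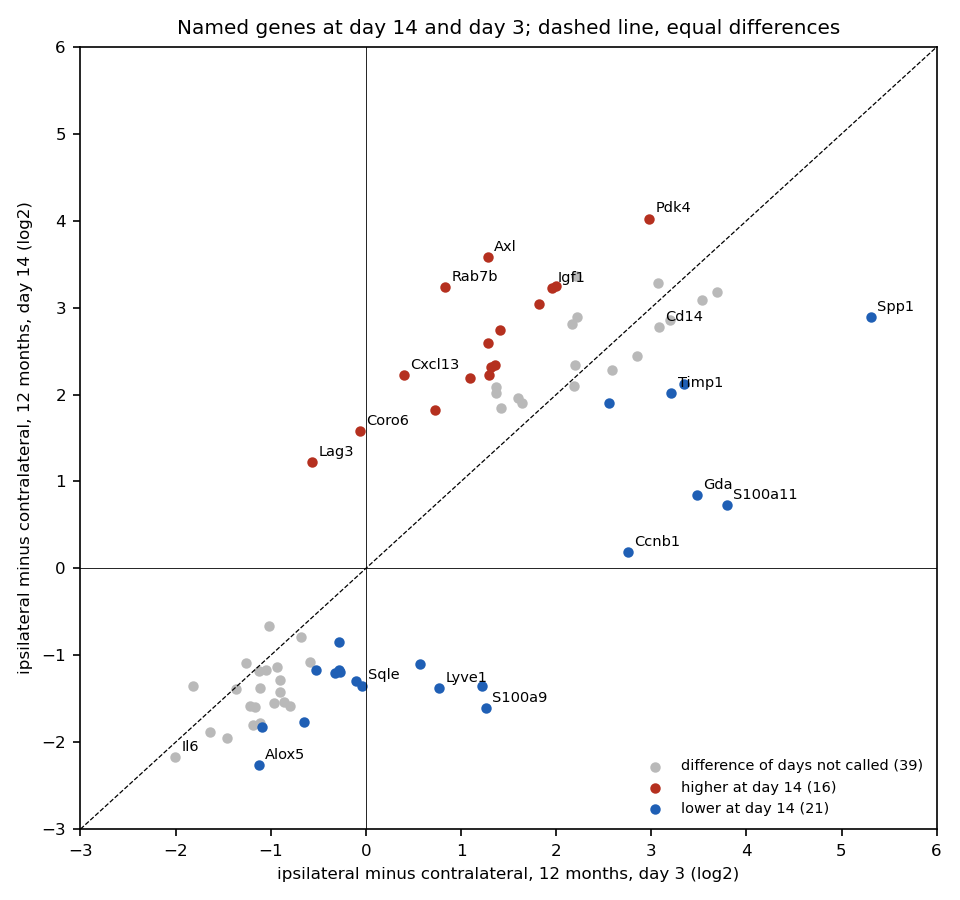
Ipsilateral minus contralateral difference of 12-month rats at day 3 (x axis, log2) and day 14 (y axis, log2) for 76 named genes, red where the difference was higher at day 14 by the test (16 genes), blue where it was lower (21) and grey where it was not called (39). Rab7b, Axl and Cxcl13 lie far above the dashed line of equal differences, and Spp1, S100a11 and Ccnb1 far below it. The genes were chosen for large differences at day 14 or by the test of days, so their distance from the line is in part set by that choice.

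Probe sets without a single gene symbol were tested apart. Of 9977 kept, 926 were called between the hemispheres (9.28%), 452 higher and 474 lower, with 45 rises and 28 falls of at least 1 log2 unit. Their largest rise was 2.53 and their largest fall -2.01.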

How the data were processed

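RNA of integrity above 7.0 was amplified from 50 ng per sample, and each sample was run on 1 whole-transcript rat array (Affymetrix Rat Gene 1.0 ST), as the labels' protocols state. The authors deposited 1 log2 value for each of 29214 probe sets and 30 arrays. The submitters' processing notes name Expression Console with RMA, a method that corrects background, normalizes by quantiles and combines the probes of a set. No detection calls were used. Precision is limited by the number of arrays.

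Gene names came from the platform annotation, updated against RefSeq genes of GRCr8: 15310 probe sets had 1 symbol, 323 several and 13581 none. A probe set was kept when above the 30th percentile of its array on at least 3 arrays, and each gene was tested on its brightest probe set, which left 11675 genes. Where all 3 arrays of a group lay at or below that percentile, the difference is given as at least the distance to it.

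Group means over all 30 arrays were fitted with limma 3.58.1 (R 4.3.3), with the animal as a random block (statmod 1.5.0; consensus correlation 0.0719) and Benjamini-Hochberg adjustment. The replicate numbers stand for animals, since the labels give 1 animal code to both hemispheres of a number, so they pair the samples. Deviations from the group means correlated at 0.152, -0.079 and 0.211 between the hemispheres of the 3 animals. P-values rest on the spread between animals pooled over the 10 groups and moderated across genes. The test was checked on simulated data. Differences of hemisphere effects were interaction contrasts of the same fit. Tables and figures were made with Python 3.11.15, pandas 2.3.3, numpy 2.4.6 and matplotlib 3.10.9.

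Genes were named by rule: outside 18 marker lists, the 25 largest rises and 25 largest falls among called genes with 1 sign in 3 animals and no overlap between hemispheres; the 10 largest each way within the marker lists; up to 4 called members of each of 16 pathway and 39 family lists described; the 5 largest each way in each test of a difference; the 5 with the widest spread over animals; and the 3 largest with 1 animal against the rest. The comparison, lists and rule were chosen with earlier results of these data known. The alternatives were other blocks, fewer arrays, other filters, averaged probe sets, median centring, quantile normalization, a variance trend and leaving out each array or animal.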

Additional observations from a re-analysis of the deposited data

Results flagged for a closer look

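These values stand out because the hemisphere difference of a gene differed between ages or days by a test of that difference. At day 14, 1 gene differed between 12 and 3 months, Serping1 (-2.44 on the log2 scale, 12 minus 3 months). That count was 14 with the 50th-percentile filter or a variance trend, and 1 to 10 when an array or animal was left out. In 12-month rats, 694 genes differed between day 14 and day 3, and the values that follow are the difference at day 14 minus that at day 3.

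Above 0 among genes outside the marker lists were Rab7b (2.40), Cxcl13 (1.83), Slfn4 (1.34), Ak4 (1.32), Cfd (1.26), Sulf2 (1.22) and Acaca (1.10). So were Cd34 (0.993), Hsdl2 (0.977) and Stom (0.937), with Coro6 (1.65) and Serping1 (0.955) beside them. Of the marker genes, Axl (2.30), Lag3 (1.78), Igf1 (1.27), Mx1 (1.10) and Pdk4 (1.05) were above 0. Timp1 (-1.19) and Septin9 (-0.651) were the leading rises that were smaller at day 14.

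Below 0 were the leading falls Sqle (-1.31), Tspan7 (-1.20), Alox5 (-1.14), Cav1 (-1.11), Cfp (-0.923), Kcnt2 (-0.888), Gal3st4 (-0.882), Astn1 (-0.732) and Pdgfc (-0.645). Of the remaining genes, S100a11 (-3.07), S100a9 (-2.87), Gda (-2.64), Ccnb1 (-2.57), S100a8 (-2.56), Spp1 (-2.42), Lyve1 (-2.15), Plac8 (-1.67), Anxa2 (-1.22) and Cnp (-0.565) were also below 0. Leaving out animal 2 or 3 brought the count between days to 424 or 411.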

How the results depend on the processing

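The 2131 calls between the hemispheres became 1663 to 2368 under the 11 alternatives that kept every array of the comparison. Without a replicate block there were 1965, with the replicate block as a fixed term over the 24 stroke arrays 1891, on the 6 arrays alone 1892 with the pairing and 1663 without it, and on the 15 arrays of 12-month rats 2368. No main call took the opposite sign under these alternatives except 1 with averaged probe sets. Of the calls, 64.1% were rises, 70.9% after median centring and 57.9% after quantile normalization. Leaving out an array or an animal gave 1301 to 1871 calls, 303 to 424 summed over the gene lists, 411 to 729 for the difference between days, 1741 to 2146 for ipsilateral against sham, 0 to 1 for contralateral against sham, 1 to 10 for the difference between ages, and 471 to 797 for probe sets without a single symbol. The difference between ages had 14 called genes with the 50th-percentile filter and 14 with a variance trend and robust estimation, under which contralateral against sham had 0. Ccnb1, not called at day 14 (0.19), ranged from -0.098 without ipsilateral replicate 1 to 0.39 without ipsilateral replicate 3. The cause of these changes was not tested. Genes at or below the 30th percentile on all 3 arrays of a group have only lower bounds on their differences.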
